A study of Danio rerio with 4 samples.

Results

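The genes described here carry axon and vessel guidance signals in zebrafish. They were chosen by name, as every gene whose symbol begins with sema, plxn, nrp, slit, robo, unc5, efna, efnb, epha or ephb, or with ntn and a digit. This rule, set with earlier results of these data known, gave 105 of the 25432 genes in the files. Of these, 97 belong to the guidance families: 31 semaphorins (12 of class 3 and 19 others), 13 plexins, 4 neuropilins, 4 slits, 5 robos, 5 netrins, 6 unc5 receptors, 8 ephrin-A and 5 ephrin-B ligands, and 8 EphA and 8 EphB receptors. The name rule also took in 7 SLITRK genes, whose products are synaptic membrane proteins, and unc50, whose product is not a netrin receptor, and these 8 are named as such where they appear. Every one of the 105 genes had at least 1 UMI in the cells analysed.

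Guidance molecules were first known as cues that attract or repel growing axons, and the same ligands and receptors steer blood and lymphatic vessels. Secreted class 3 semaphorins signal through plexins together with neuropilins, which also bind Vegf, slits signal through robo receptors, and netrins through Unc5 and Dcc family receptors. Ephrins are bound to the membrane and signal to Eph receptors on the neighbouring cell. Ephrin-B2 on arteries and EphB4 on veins are textbook marks of the 2 vessel types in mouse and fish.

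The study sorted GFP-positive cells from 3 dpf embryos that all carried Tg(kdrl:EGFP), a line in which the promoter of the Vegf receptor gene kdrl drives GFP, and counted their RNA with a droplet 3′ method. Of 4 libraries, 2 came from WT embryos and 2 from flt1-/- embryos of the flt1ka604 line, which lacks functional Flt1, a receptor that binds Vegf. Each library pooled the cells of many whole embryos, and no label ties the libraries to separate crosses or days, so p-values measure only the spread between these libraries, which may be technical. The sort selects by GFP from the kdrl promoter and held more blood than endothelial cells.

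After the filters on cells, 5191 of 7677 called cells were kept, 737 to 2065 per library, and the median cell held 11165 to 16940 UMIs. Cells were clustered without the guidance genes, and the classes were named from marker lists that hold none of them, so these genes shaped neither the classes nor their names. There were 1216 endothelial cells, 2182 blood cells and 123 neuron-like cells among the named classes. The pan-endothelial markers summed to between 5710 and 7200 CPM (UMIs of a gene per 1000000 UMIs of all genes) in endothelial cells, 39.1 to 72.5 CPM in blood cells and 51.3 to 117 CPM in neuron-like cells. kdrl itself stood at 980 ± 193 CPM (SD, n = 4) in endothelial cells and 3.19 ± 0.73 CPM in blood cells. Endothelial classes were arterial-like (236 cells), capillary-like (166), venous-like (158), lymphatic-like (144) and endocardial-like (274). Arterial-like, capillary-like and venous-like cells with 53 unnamed cells of the same cluster are called blood endothelial cells (613). Another 185 endothelial cells stayed unnamed and enter only the sums over all endothelial cells. Of these, 133 lay in a subcluster with raised gata4, gata5 and gata6, which are on the endocardial list. The venous-like and arterial-like classes are less firmly named. None of the 10 leading genes of any venous-like subcluster is on the venous list, and none of any arterial-like subcluster is on the arterial list. Arterial-like subclusters 5 and 11 (127 and 41 cells) raised 4 and 5 of 9 arterial markers. Both also raised 4 of 5 tip cell markers, among them esm1, apln and cxcr4a, the last of which is on both lists. Arterial-like and tip-like cells were therefore not separated here. Called cells of different libraries shared 8 barcodes. flt1 stood at 382.2 to 481.9 CPM in arterial-like cells and overlapped between genotypes. A 3′ tag outside the mutated site does not check the genotype, and the genotypes rest on the labels.

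Levels below are CPM of the summed cells of a class and library, with no correction for gene length. In such sums, fewer expressing cells and less RNA per cell cannot be told apart. Tests used edgeR's quasi-likelihood test on the summed counts with Benjamini-Hochberg adjustment over all genes tested, and adjusted p-values below come from it.

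Guidance genes at 50 CPM or more had their highest level mainly in the endothelium, in neuron-like cells and in the other nonblood classes of these sorted cells. Of the 105 genes, 76 reached 10 CPM in a named class, 32 reached 50 CPM, 17 reached 100 CPM and 3 reached 500 CPM, while 29 stayed below 10 CPM everywhere. A few UMIs can reach 10 CPM in neuron-like cells, whose smallest library sum held 96339 UMIs. efna3a, for example, stood there at 13.39 ± 16.02 CPM with 9 UMIs in all cells. The number at 50 CPM or more was 16 in neuron-like cells, 12 each in capillary-like, venous-like and lymphatic-like cells, 10 in arterial-like cells and 9 in endocardial-like cells. In the 185 unnamed endothelial cells it was 15. In blood it was 2 in granulocyte-like and in thrombocyte-like cells, 1 in lymphoid-like and in macrophage-like cells, and 0 in blood progenitor-like and erythrocyte-like cells. unc50, which is not a guidance gene, was 1 of these genes in each of the 4 blood classes, so plxnc1 in granulocyte-like and nrp2b in thrombocyte-like cells were the only guidance family genes at that level in blood. Among the named endothelial classes it was also counted in venous-like and lymphatic-like cells. How many of all genes reach 50 CPM in each class is not given, so these numbers alone do not set guidance genes apart. Of the 32 genes, 9 had their highest level in neuron-like cells and 16 in an endothelial class. Because free RNA in droplets can give UMIs to any cell, erythrocyte-like cells served as a background. The 31 genes other than unc50 stood there at 0 to 2.2% of their highest level, with a median of 0.34%. Erythrocyte-like cells were deeper, with a median of 18911.5 UMIs against 3735 in neuron-like and 6783 in thrombocyte-like cells. This background may therefore be too low for the shallower classes.

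**Figure D1:**
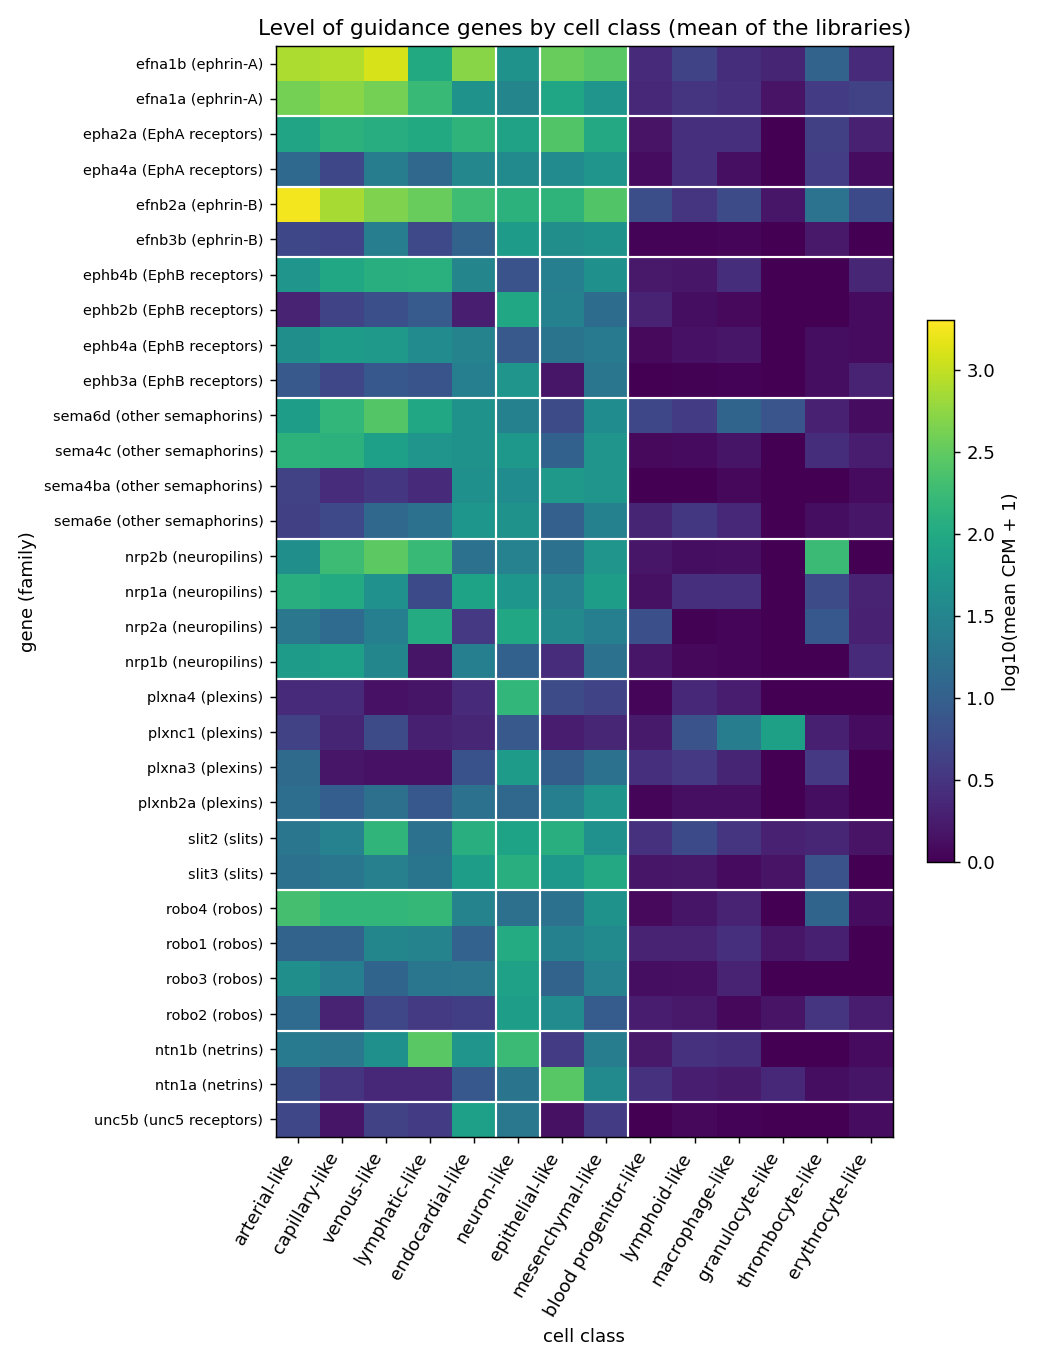
Level of the 31 guidance genes at 50 CPM or more in a named class (rows, with family) in 14 cell classes (columns), as log10 of the mean CPM plus 1 over the libraries with at least 10 cells of that class. The 6 blood classes at the right are dark for nearly all genes, with nrp2b in thrombocyte-like cells and plxnc1 in granulocyte-like cells as the lightest squares.

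Among the ligands, ephrins had the highest levels. efnb2a, the arterial ephrin-B, stood at 651 ± 94.8 CPM (SD, n = 4) over all endothelial cells and efna1b, an ephrin-A ligand, at 653 ± 46.9 CPM. All 4 libraries lay within 520.7 to 741.1 CPM for efnb2a, against 1.994 to 5.643 CPM in blood cells. No class 3 semaphorin reached 50 CPM in a named class. Among the other semaphorins sema6d and sema4c, which are transmembrane ligands, had endothelial levels of 104 ± 53.1 and 86.4 ± 17.6 CPM. Among the receptors, all 4 neuropilins reached 50 CPM in a named class. The endothelial level was 120 ± 23.8 CPM for robo4, the roundabout receptor known from vessels, and 105 ± 37.7 CPM for epha2a, a receptor of ephrin-A ligands. plxnd1, the plexin through which class 3 semaphorins act on vessels, was low, at 8.03 ± 2.12 CPM.

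Nearly all guidance genes that could be tested were higher in endothelial than in blood cells. Of the 65 genes that passed the filter on low counts, 59 were higher and 4 lower, where 32.7% of all 12695 genes tested were called higher and 34.9% lower. Their median log2 fold change was 4.15, against −0.08 over all genes tested, and 40 guidance genes were too low to test. These 65 are the genes with enough counts in at least one of the classes, so the counts say nothing of the 40 others. A gene nearly absent from blood could pass the filter only through its endothelial counts, which fixed its direction in advance. The 59 genes and the median therefore describe the filtered set and are no test of the families. The same limit applies to the other contrasts between classes. efna1b was higher by a log2 fold change of 7.41 ± 0.19 (SE, adjusted p = 2.5e-09), efnb2a by 6.61 ± 0.25 (adjusted p = 6.8e-09) and robo4 by 6.34 ± 0.26 (adjusted p = 1e-08), each in all 4 libraries. The neuropilins spanned a wide range, from 3.17 ± 0.30 for nrp2a and 3.53 ± 0.17 for nrp2b to 5.0 ± 0.29 for nrp1a and 5.88 ± 0.34 for nrp1b (adjusted p = 4.7e-06 or less). unc5b, a netrin receptor of vessels in mouse, stood at 18.74 to 35.3 CPM in the endothelium and 0 to 0.2577 CPM in blood (log2 fold change 6.98 ± 0.49, adjusted p = 3.8e-07). Where blood held only 2 or 3 UMIs, the ratio was uncertain. Ratios with a counting interval use summed UMIs without TMM scaling, so they are not on the scale of the log2 fold changes. sema3d, a secreted semaphorin, had 148 UMIs against 2, a ratio of 336 with a 95% counting interval of 91.5 to 2800. ntn1a was just past the threshold (1.41 ± 0.43, adjusted p = 0.013) and was not without flt1-/- replicate 2 (1.19, adjusted p = 0.098).

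The 4 genes that were lower in the endothelium were plxnc1, sema4ab, sema4aa and unc50. For unc50 the mean CPM were nearly equal (41.7 and 42.9), and its log2 fold change of −0.70 ± 0.15 (adjusted p = 0.0016) is on the TMM-scaled counts. plxnc1, the receptor for semaphorin 7A in mammals, had a log2 fold change of −3.13 ± 0.30 (adjusted p = 4.5e-06) and was highest in granulocyte-like cells, at 74.62, 93.06 and 52.84 CPM in the 3 libraries with at least 10 such cells. It reached 19.16 to 31.19 CPM in macrophage-like cells and 4.452 to 7.209 CPM in lymphoid-like cells. sema4ab, a class 4 semaphorin, fell by 2.61 ± 0.24 on the log2 scale (adjusted p = 3.5e-06), with 29.51 to 46.05 CPM in lymphoid-like cells and 14.42 to 19.27 CPM in macrophage-like cells. sema4aa had 1 UMI in the endothelium and 136 in blood, which makes it 29.9 times higher in blood with a counting interval of 5.28 to 1190, and its highest level was in granulocyte-like cells (25 ± 6.24 CPM, n = 3). Among the blood classes plxnc1 and sema4aa were thus highest in granulocyte-like cells and sema4ab in lymphoid-like cells, an order that was not tested. nrp2b, higher in the endothelium than in the summed blood cells, was also a gene of thrombocyte-like cells, with 241.2 and 150.6 CPM in WT and 169.7 and 144.7 CPM in flt1-/-. In the granulocyte-like, macrophage-like and lymphoid-like cells nrp2b ranged from 0 to 1.066 CPM. Of 50 pathway genes outside the rule (receptors such as dcc and neo1a, adhesion proteins and cytoplasmic effectors), 34 were tested and 24 were higher in the endothelium and 7 lower.

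**Figure D2:**
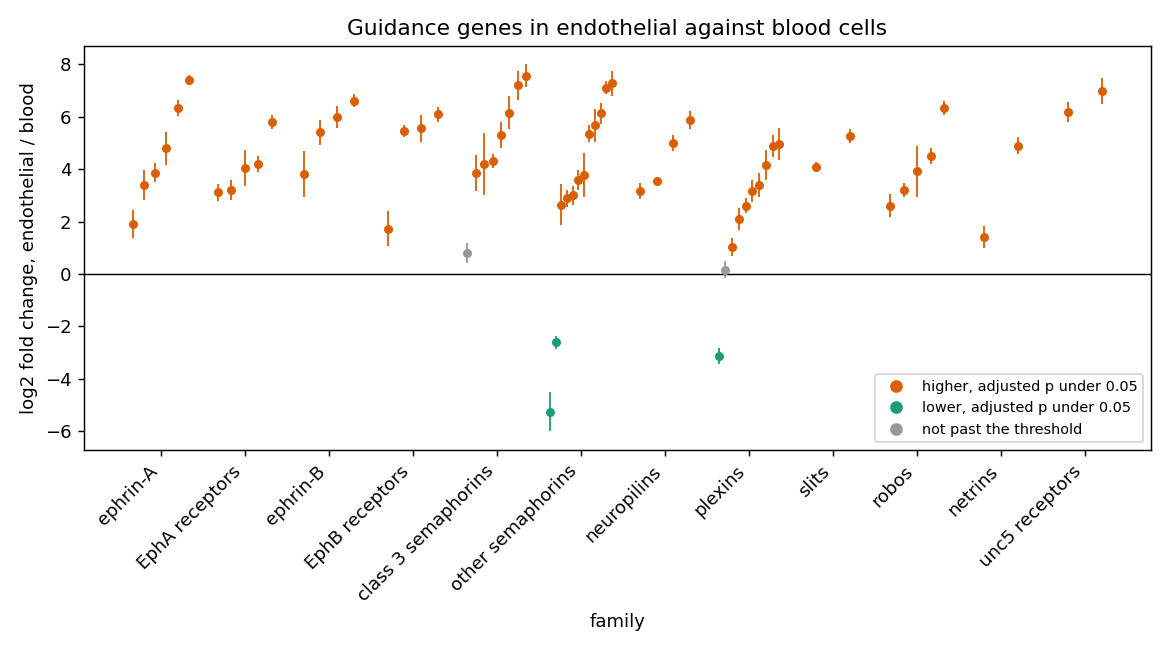
Log2 fold change, endothelial against blood cells, of the 64 tested guidance genes other than unc50, one point per gene by family, with bars of 1 SE. Points lie above 0 for all but sema4aa, sema4ab and plxnc1, and the grey points, sema3ga and plxnb1b, did not pass the threshold.

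Some guidance genes were higher in neuron-like cells than in the endothelium and others were lower. This comparison used the 3 libraries with at least 10 neuron-like cells, since WT replicate 2 held only 8, and these cells were shallower, with a median of 3735 UMIs against 7691.5 in endothelial cells. Of 51 genes tested, 14 were higher in neuron-like cells and 14 lower, where 16.4% and 20.6% of all 8688 genes tested were called, and 23 did not pass the threshold, among them both slits, both netrins and both unc5 receptors tested. The median log2 fold change was −0.30, against −0.15 over all genes. plxna4, a plexin of axons, stood at 290.6, 130.2 and 40.62 CPM in WT replicate 1, flt1-/- replicate 1 and flt1-/- replicate 2, against 0 to 3.121 CPM in endothelial cells (log2 fold change 6.0 ± 0.64, adjusted p = 1.4e-05). The groups did not overlap, but the level varied widely between libraries. Higher in neuron-like cells as well were the receptors ephb2b (3.95 ± 0.59, adjusted p = 0.00017), plxna3 (3.22 ± 0.50, adjusted p = 0.00024), robo2 of gene ID ENSDARG00000014891 (2.91 ± 0.57, adjusted p = 0.0013) and robo1 (1.95 ± 0.50, adjusted p = 0.0073). robo1 and robo2 are the slit receptors of axons. Among the ligands, efna2b (4.84) and efna2a (3.46) rose, as did sema5a (3.3). With no upper limit on genes per cell efna2a was at 1.66 (adjusted p = 0.083), while unc5b (−2.03, adjusted p = 0.0059) and nrp1a (−1.94, adjusted p = 0.0014) were then called lower. slitrk6, a SLITRK gene outside the guidance families that is counted among the 14 higher genes, had 20 UMIs against 3. That is a ratio of 81.1 without TMM scaling, with a counting interval of 24 to 426, and its log2 fold change was 5.38.

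The 14 genes lower in neuron-like cells held the main vascular ligands and receptors. efna1b fell by 4.30 ± 0.40 on the log2 scale, efna1a by 3.71 ± 0.40, robo4 by 3.61 ± 0.65, efnb2a by 2.94 ± 0.34 and nrp1b by 2.80 ± 0.65 (adjusted p = 0.0039 or less). ephb4b had 3 UMIs against 437 and was 12 times lower, with a counting interval of 4.07 to 58.3. efnb2a still stood at a mean of 130 CPM in the neuron-like libraries, against 4.492 CPM in erythrocyte-like cells. Erythrocyte-like cells are deeper, and the part of free RNA in the neuron-like level was not tested. ntn1b, which encodes a secreted netrin, was uneven among the neuron-like cells, with 532.7 CPM in flt1-/- replicate 1 and 0 in WT replicate 1 and flt1-/- replicate 2. The 8 neuron-like cells of WT replicate 2 held another 46 UMIs of it. slit3 likewise stood at 218, 130.2 and 0 CPM. Leaving out flt1-/- replicate 2 lowered the number of called genes from 28 to 18 and brought nrp2a (2.09, adjusted p = 0.0066) and slit3 (1.68, adjusted p = 0.013) past the threshold, while efnb3b, sema3ab and ephb4a were no longer past it. How many of all genes were then called is not given. Among the pathway genes, 18 of 38 tested were higher in neuron-like cells and 8 lower, led by the adhesion genes l1camb (7.71) and dscamb (6.99).

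Within the blood endothelium the guidance genes separated the arterial-like and venous-like classes in both directions. Of 29 genes tested, 8 were higher in venous-like cells and 5 in arterial-like cells, where 10.2% and 7.36% of all 5581 genes tested were called higher and lower in venous-like cells. The median log2 fold change was 0.58, against −0.03 over all genes. The summed arterial marker list overlapped between the classes, with 4930 to 7560 CPM in arterial-like and 2630 to 6550 CPM in venous-like cells, while the venous list, with 205 to 423 and 1250 to 2410 CPM, did not. Capillary-like cells were not part of this comparison. Of the named classes they came second to venous-like cells in mean nrp2b, sema6d and efna1b (184.1, 153.4 and 822.1 CPM). They also came second to arterial-like cells in efnb2a (734.6 CPM) and were highest in ephb4a (65.62 CPM).

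efnb2a, the arterial ligand, stood at 1837 and 1540 CPM in the arterial-like cells of WT and 1503 and 2163 CPM in those of flt1-/-. In venous-like cells it stood at 518.8, 314.3, 680.1 and 319.8 CPM, so the classes did not overlap (log2 fold change −1.89 ± 0.26, adjusted p = 3.7e-05). Its receptor genes were less divided. ephb4b stood at 36.32 to 69.49 CPM in arterial-like and 90.2 to 143.8 CPM in venous-like cells (1.28 ± 0.24, adjusted p = 0.001; with no upper limit on genes per cell, 1.11 and 0.058). ephb4a, the zebrafish gene usually taken as the venous mark, had 40.53 to 45.79 CPM against 26.2 to 90.56 CPM, and its difference did not pass the threshold (0.51 ± 0.32, adjusted p = 0.31). The ephrin-A ligand efna1b was higher in venous-like cells (0.81 ± 0.20, adjusted p = 0.0077; without flt1-/- replicate 2, 0.79 and 0.082, and with no upper limit on genes per cell, 0.27 and 0.38), and efna1a was level, at −0.01 ± 0.22 (adjusted p = 0.99).

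Of the neuropilins, nrp2b was higher in venous-like cells and nrp1a, less firmly, in arterial-like cells. nrp2b stood at 26.29, 65.63, 39.47 and 39.77 CPM in arterial-like cells of WT 1, WT 2, flt1-/- 1 and flt1-/- 2 and at 199.1, 436.8, 203.8 and 341.8 CPM in venous-like cells (2.84 ± 0.23, adjusted p = 1.1e-07). It was the guidance gene with the largest rise in venous-like cells. nrp1a went the other way, with 79.54 to 151.9 CPM in arterial-like and 26.2 to 69.25 CPM in venous-like cells (−1.24 ± 0.28, adjusted p = 0.0045). The nrp1a difference rested on 1 group of arterial-like cells, subcluster 8, whose mean was 233 ± 43.9 CPM against 44.6 ± 13.5 CPM in subcluster 5. flt1-/- replicate 2 had 9 cells of subcluster 8 and is not in its mean. Without subcluster 8 the log2 fold change of nrp1a was 0.07 (adjusted p = 0.93), and without venous-like subcluster 6, most of whose cells came from flt1-/- replicate 1, it was −0.77 (adjusted p = 0.15). nrp1b (−0.86 ± 0.37, adjusted p = 0.12) and nrp2a (0.45 ± 0.46, adjusted p = 0.57) did not pass the threshold. Without subcluster 6, nrp1b did so, at −2.14 (adjusted p = 0.0058). Leaving out subcluster 6 also dropped WT replicate 1, whose 8 cells of subcluster 7 were below the limit of 10.

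Slit, netrin and semaphorin ligands also differed. slit2, a repellent for robo-bearing axons, stood at 15.44 to 24.62 CPM in arterial-like cells and at 57.64, 271.7, 48.71 and 187.4 CPM in venous-like cells (2.78 ± 0.36, adjusted p = 2.2e-05). Replicates numbered 2 were higher in both genotypes, and with no upper limit on genes per cell the difference was 0.52 (adjusted p = 0.66). nrp2b in venous-like cells was likewise higher in replicates numbered 2. In WT 1, WT 2, flt1-/- 1 and flt1-/- 2, subcluster 6 gave 12, 2, 61 and 9 venous-like cells and subcluster 7 gave 8, 25, 16 and 25. In these class levels alone the replicate and the subcluster mix cannot be told apart. Subcluster 7 raised 6 of 7 venous markers and also gata4, gata6 and klf2a, which are on the endocardial list. sema6d stood at 43.81 to 102.6 CPM against 165.4 to 378.8 CPM (2.00 ± 0.25, adjusted p = 1.3e-05). ntn1b was higher in venous-like cells by 1.29 ± 0.41 (adjusted p = 0.037) and lost the call without WT replicate 2 (1.02, adjusted p = 0.12), without flt1-/- replicate 1 (1.44, adjusted p = 0.1) and without flt1-/- replicate 2 (1.15, adjusted p = 0.16). sema7a, which encodes a membrane-anchored semaphorin, was lower in venous-like cells, with 20.45 to 52.1 CPM against 0 to 5.412 CPM (−3.56 ± 0.62, adjusted p = 0.00048).

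Of the robo receptors, robo3 was higher in arterial-like cells (28.95 to 58.71 against 0 to 20.96 CPM; −1.78 ± 0.47, adjusted p = 0.014), though not past the threshold without flt1-/- replicate 2 (−1.47, adjusted p = 0.13). robo4 did not pass it (−0.34 ± 0.26, adjusted p = 0.42) unless subcluster 6, and with it WT replicate 1, was left out (−1.02, adjusted p = 0.017). robo1 (2.09 ± 0.65, adjusted p = 0.034) and efnb3b (2.49 ± 0.77, adjusted p = 0.031) were called higher in venous-like cells but rose in 3 of 4 libraries only. sema4c was lower in venous-like cells by −0.78 ± 0.24 (adjusted p = 0.029) and lost the call without any of 3 libraries, WT replicate 1 (adjusted p = 0.12), WT replicate 2 (0.096) and flt1-/- replicate 2 (0.1). Without flt1-/- replicate 2 the number of called guidance genes was 7 in place of 13. With no upper limit on genes per cell it was 5, and ntn1b (0.73, adjusted p = 0.29), robo3 (−1.05, adjusted p = 0.18) and sema4c (−0.76, adjusted p = 0.12) were then not past the threshold. How many of all genes were called under these settings is not given. Among the pathway genes, 16 were tested and chl1a (2.01) was higher in venous-like cells while kalrnb (−1.88) and pak2a (−0.82) were lower.

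**Figure D3:**
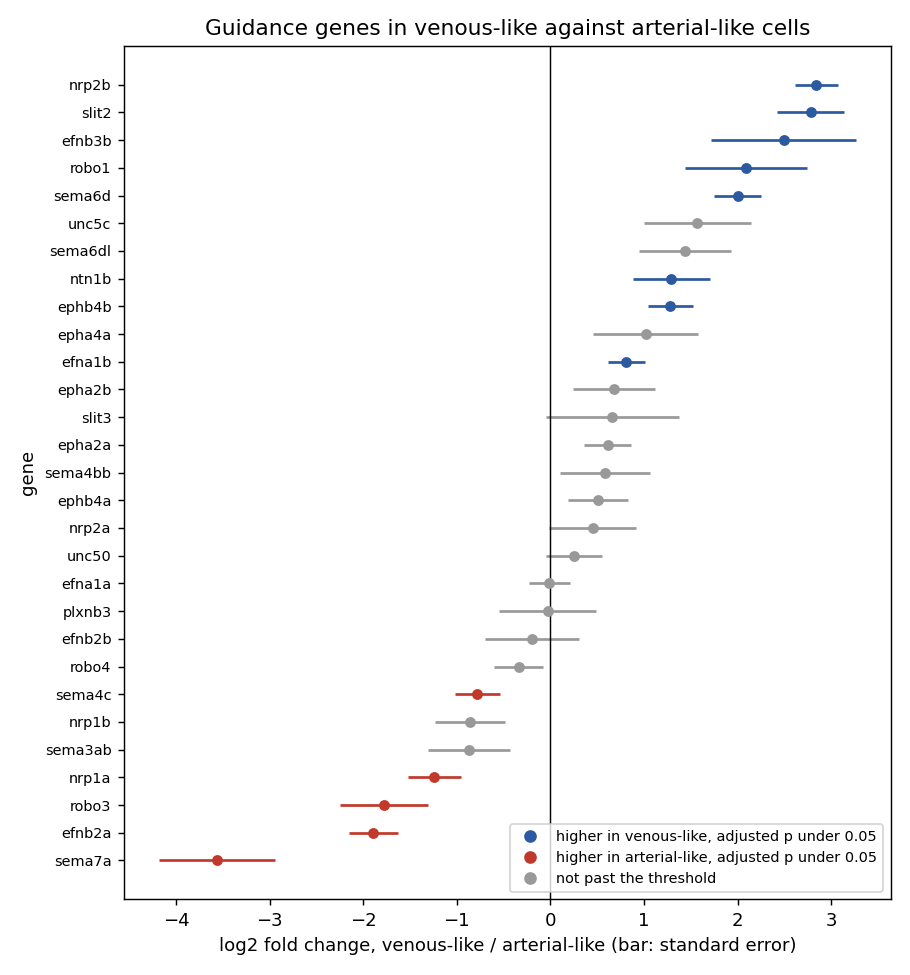
Log2 fold change, venous-like against arterial-like cells, of the 29 tested genes (unc50 included), with bars of 1 SE. The 8 blue genes were higher in venous-like cells and the 5 red genes in arterial-like cells at an adjusted p under 0.05, and the grey genes did not pass the threshold.

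The same axis was followed without class borders. In every library the blood endothelial cells were ordered by a venous minus arterial marker score and cut into 5 bins of 17 to 41 cells, and a slope per bin was fitted. The cells include those of the comparison of classes above, with the 166 capillary-like and 53 unnamed cells besides. The slopes are therefore a second view and no independent evidence. Of 18 genes tested, 4 rose and 8 fell toward the venous end, where 9.91% and 8.98% of all 3844 genes tested did. nrp2b rose in every library, from 0, 31.58, 25.57 and 5.339 CPM in the most arterial bin to 223.6, 337.1, 237 and 336.6 CPM in the most venous (0.95 ± 0.08 log2 units per bin, adjusted p = 3.3e-09). slit2 (0.65), sema6d (0.58) and ephb4b (0.38) rose as well. efnb2a fell from 2060 to 3721 CPM in the first bin to between 458.5 and 632.1 CPM in the last (−0.56 ± 0.05, adjusted p = 8.3e-09), with most of the fall between bins 1 and 3. sema7a fell by 1.09 ± 0.14 per bin and robo3 by 0.52 ± 0.10. nrp1a (−0.36 ± 0.07, adjusted p = 0.00059), nrp1b (−0.28), sema3ab (−0.38), robo4 (−0.22) and efna1a (−0.17) had shallower falls. The slope of robo4 rested on WT replicate 1, where the first bin stood at 484.3 CPM against 229.6 to 255.7 CPM in the others, and without that library it was −0.14 (adjusted p = 0.1). sema3ab, nrp1b and efna1a each lost the call without at least 1 other library, among them flt1-/- replicate 2 (−0.29, −0.23 and −0.09). The 2 pathway genes of 10 that passed, arhgef12b (−0.23) and kalrnb (−0.30), fell toward the venous end.

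**Figure D4:**
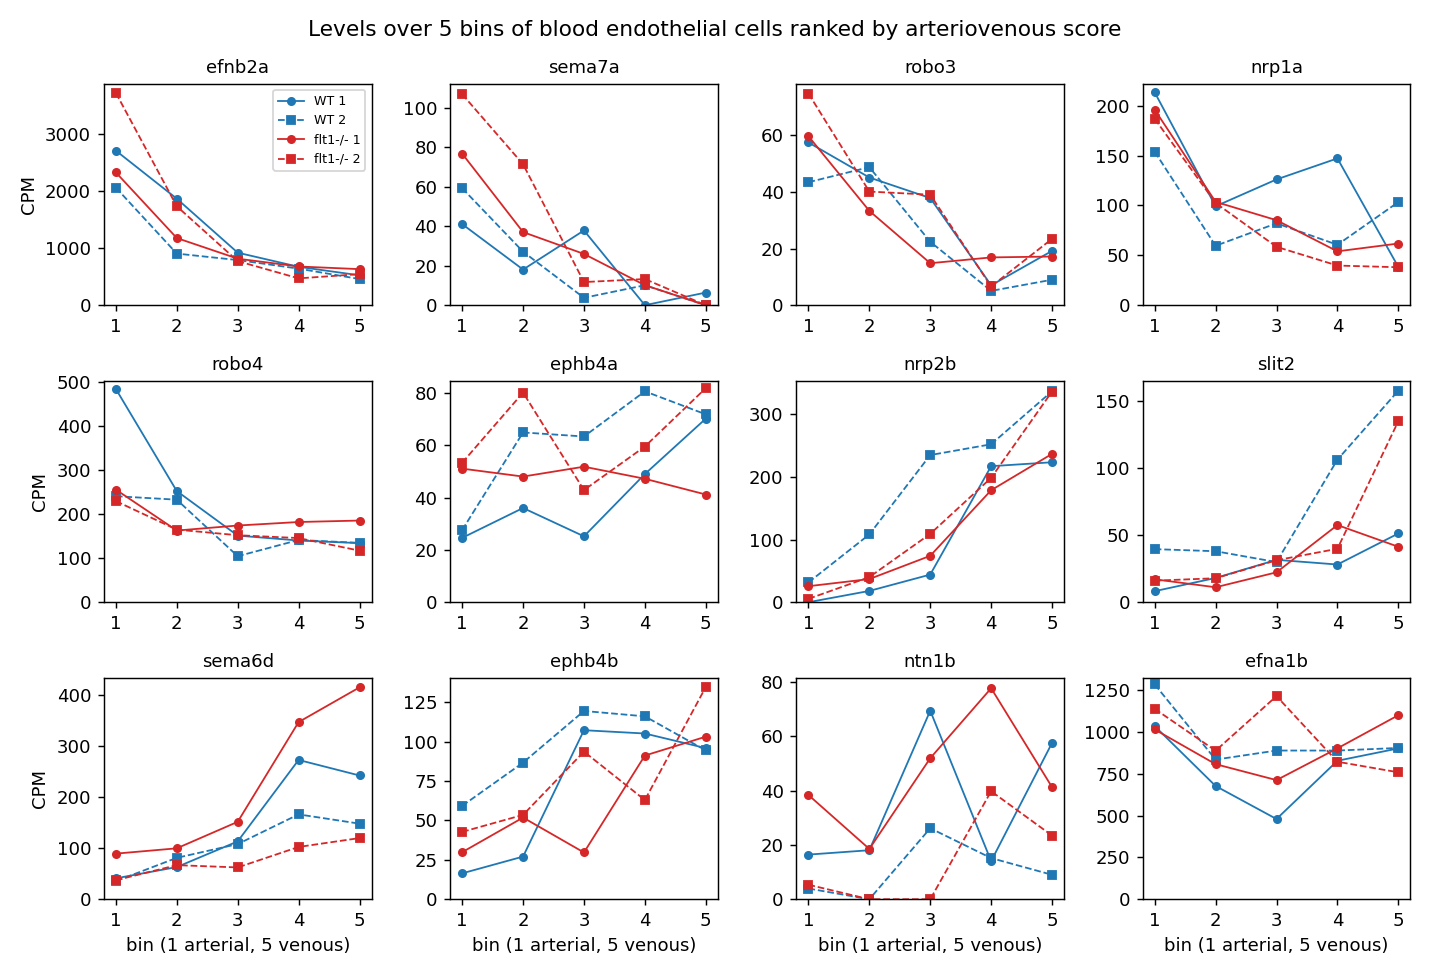
Level in CPM (linear axes from 0) of 12 guidance genes over 5 bins of blood endothelial cells from the arterial end (bin 1) to the venous end (bin 5), one line per library. nrp2b rises and efnb2a falls in all 4 libraries, and ephb4a and efna1b show no common direction.

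Endocardial-like cells, which line the heart, were compared with the pooled blood endothelial cells. Against these, 14 of 45 tested genes were higher and 15 lower, where 12.3% and 12.4% of all 7755 genes tested were called. unc5b stood at 69.5, 50.62, 93.93 and 74.54 CPM in endocardial-like cells and at 0 to 7.241 CPM in blood endothelial cells (4.92 ± 0.44, adjusted p = 3.7e-06). No other named class had a mean of 50 CPM for it, a ranking that leaves out the 185 unnamed endothelial cells. sema6e (3.31 ± 0.30) and sema4ba (3.89 ± 0.32), transmembrane semaphorins, were higher in every library, with 28.12 to 79.94 and 25.98 to 60.34 CPM. sema3gb, a class 3 semaphorin, had 47 UMIs against 2, a ratio of 38.3 with a counting interval of 10 to 326. plxna1a, a plexin for class 3 semaphorins, had 38 against 3, a ratio of 20.7 (6.55 to 105). Both slits with levels above 50 CPM were higher, slit3 by 1.92 ± 0.25 (adjusted p = 7.8e-05) and slit2 by 1.43 ± 0.19 (adjusted p = 1e-04). Of these genes unc5b, sema6e and sema3gb had their highest mean of any named class here, and sema4ba was highest in epithelial-like cells, slit3 and plxna1a in neuron-like cells and slit2 in venous-like cells.

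Among the genes lower in the endocardial-like class were all 3 ephrin-A ligands tested (efna1a, efna1b and efna5a), 3 of 4 neuropilins and 1 of 3 robos. Of 3 ephrin-B ligands tested, efnb2b was higher (0.81 ± 0.26, adjusted p = 0.041), efnb2a was lower and efnb3b was not past the threshold. efnb2a stood at 172.6, 195.2, 227.8 and 159.7 CPM there against 1247, 1003, 1078 and 1229 CPM in blood endothelial cells (−2.48 ± 0.15, adjusted p = 1.3e-07). efna1a (−3.06 ± 0.19), nrp2a (−2.97 ± 0.63), nrp2b (−2.96 ± 0.29), sema7a (−2.87 ± 0.44) and robo4 (−2.61 ± 0.23) fell by a similar or larger amount. nrp1a did not pass the threshold (−0.14 ± 0.28, adjusted p = 0.79), whereas nrp1b was lower (−1.01 ± 0.26, adjusted p = 0.011), so the paralogues again differed in call, a difference that was not itself tested. ephb4b (−1.25 ± 0.21, adjusted p = 0.00067) was lower in all 4 libraries. The calls of ephb4a (−0.74 ± 0.24), efna5a (−1.45 ± 0.46), epha2b (−1.34 ± 0.35) and sema3ab (−1.64 ± 0.36) were each lost when 1 of the libraries was left out. For sema3ab and epha2b that library was WT replicate 2 (adjusted p = 0.067 for both), for efna5a it was each library in turn (adjusted p = 0.053 to 0.16), and for ephb4a it was WT replicate 1 or either flt1-/- library (adjusted p = 0.11 to 0.12). The higher level of epha4a (1.45 ± 0.32, adjusted p = 0.0043) was not past the threshold without endocardial-like subcluster 2, of which flt1-/- replicate 1 gave 1 cell (0.71, adjusted p = 0.3). Of 24 pathway genes tested, 5 were higher, led by chl1a (2.92) and neo1a (2.02), which encodes a netrin and Rgm receptor, and vav2 (−1.40) and dpysl3 (−1.21) were lower.

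In lymphatic-like cells nrp2a was higher and nrp1a and nrp1b lower than in blood endothelial cells. Of 31 genes tested against blood endothelial cells, 3 were higher and 9 lower, where 8.95% and 11.1% of all 6660 genes tested were called. Blood endothelial cells are the common partner of this comparison and of the endocardial-like one. nrp2a, whose mouse counterpart Nrp2 is a Vegfc co-receptor of lymphatic vessels, stood at 141.8, 101.2, 72.33 and 109.4 CPM in lymphatic-like cells against 21.72, 28.4, 12.48 and 14.49 CPM (2.44 ± 0.26, adjusted p = 1.5e-07). nrp2b did not differ past the threshold (0.11 ± 0.20, adjusted p = 0.78), with 84.73 to 200.1 CPM. nrp1a was at 0, 13.72, 4.133 and 0 CPM against 74.72 to 121.6 CPM (−3.86 ± 0.41, adjusted p = 1.8e-07). nrp1b had 1 UMI in all lymphatic-like cells against 253, which is 86.9 times lower with a counting interval of 15.5 to 3450. Lymphatic-like cells thus held both nrp2 paralogues and almost no nrp1 RNA.

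The other genes higher in lymphatic-like cells were ligands. ntn1b stood at 500.4, 90.92, 341 and 193.6 CPM against 11.54 to 46.25 CPM in blood endothelial cells (3.24 ± 0.21, adjusted p = 1.1e-10), the highest endothelial level of any netrin. sema3d stood at 25.02, 41.17, 31 and 30.87 CPM against 0 to 7.988 CPM (3.52 ± 0.57, adjusted p = 5.6e-05). Both were higher in all 4 libraries. efna1b was the most reduced ephrin, with 61.73 to 133.4 CPM against 776.2 to 971 CPM (−3.22 ± 0.21, adjusted p = 1.1e-10), followed by efnb2a (−1.81 ± 0.18, adjusted p = 7.3e-08) and efna1a (−1.40 ± 0.20, adjusted p = 1e-05). robo4 (−0.22 ± 0.19, adjusted p = 0.52), ephb4b (0.48 ± 0.23, adjusted p = 0.18) and ephb4a (−0.41 ± 0.26, adjusted p = 0.34) did not pass the threshold. slit3 was uncalled (−0.18 ± 0.42, adjusted p = 0.84) but was called lower with no upper limit on genes per cell (−2.06, adjusted p = 0.016), with the highest doublet scores left out (−2.29, adjusted p = 0.0073) and with sub-clustering at resolution 1.5 (−1.93, adjusted p = 0.02). slit2 was lower (−1.52 ± 0.42, adjusted p = 0.011) but rested on 27 UMIs, with 0 in flt1-/- replicate 2, and lost the call without that library (−0.98, adjusted p = 0.091) or without WT replicate 2 (−1.40, adjusted p = 0.14). plxnb3 (−1.21 ± 0.41, adjusted p = 0.038) lost it without WT replicate 2, flt1-/- replicate 1 or flt1-/- replicate 2 (adjusted p = 0.13, 0.14 and 0.2). Of 20 pathway genes tested 5 were higher, among them srgap1b (4.12), a cytoplasmic partner of robo receptors, and rgmb (1.73), a neogenin ligand, and 4 were lower, led by vav2 (−3.03) and farp2 (−2.54), effectors of Eph and plexin signalling.

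**Figure D5:**
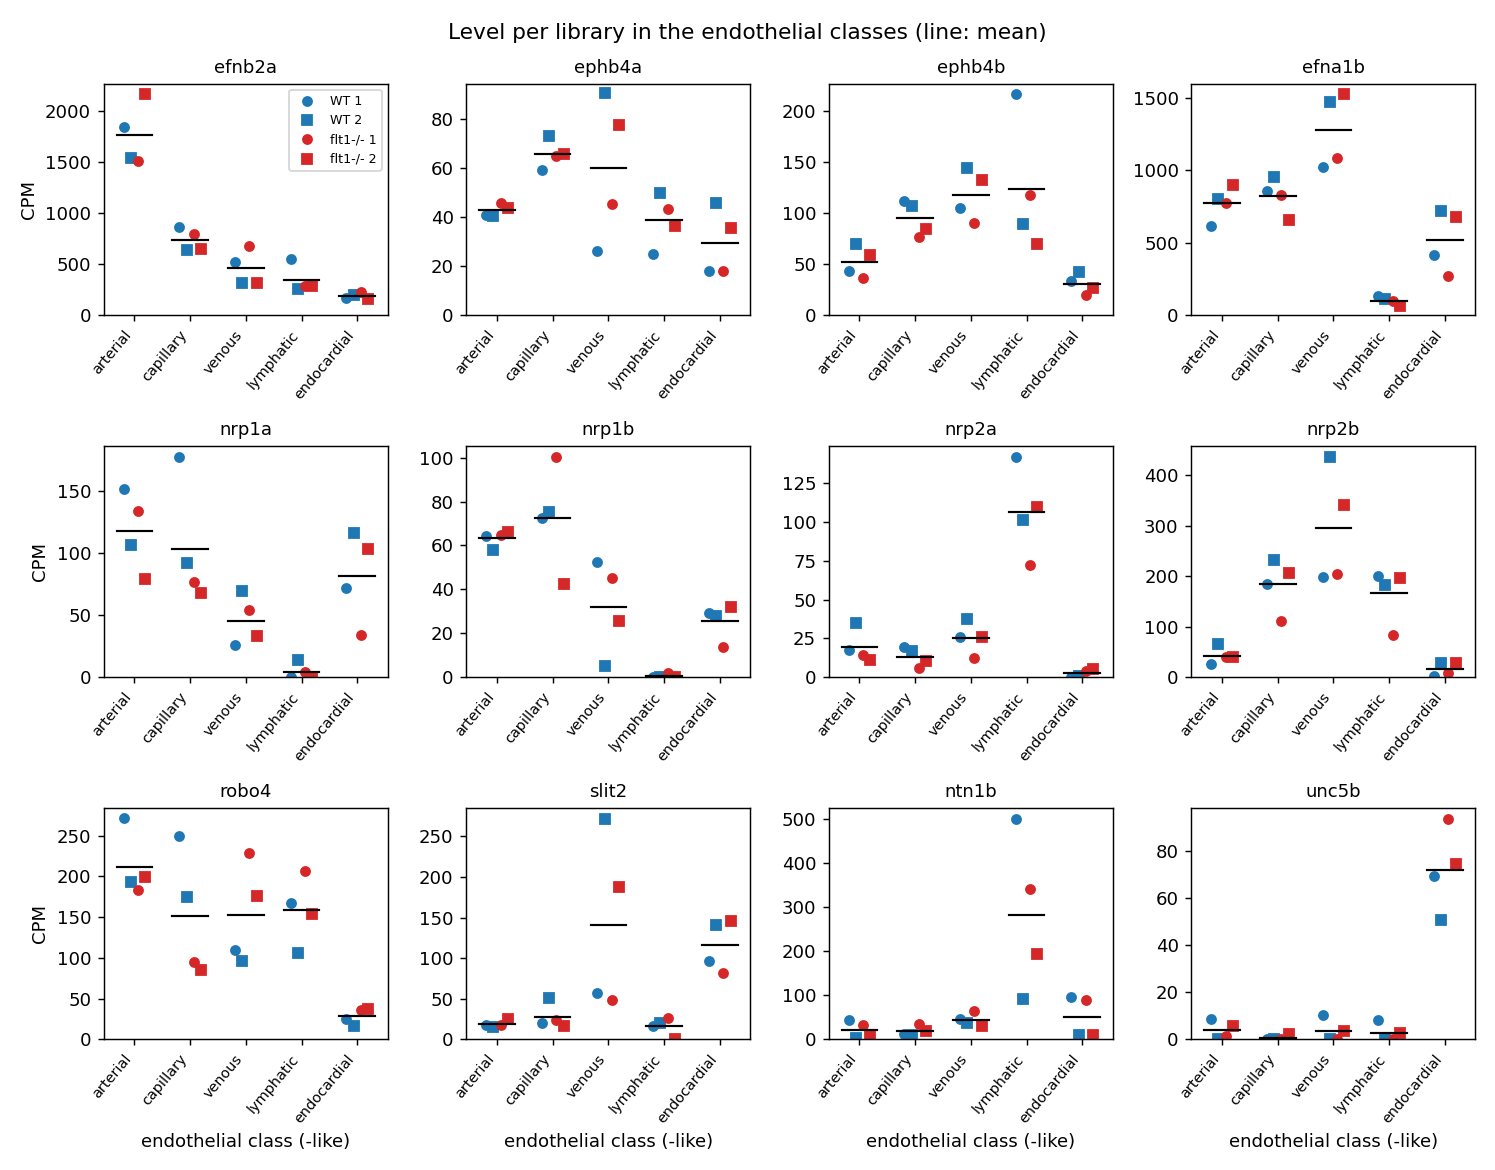
Level in CPM (linear axes from 0) of 12 guidance genes in the 5 endothelial classes, one symbol per library (WT blue, flt1-/- red) and a line at the mean. nrp2a and ntn1b are highest in lymphatic-like cells, unc5b in endocardial-like cells, nrp2b in venous-like cells and efnb2a in arterial-like cells.

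The study compared flt1-/- with WT embryos, and with genotype as the only term no guidance gene passed edgeR's threshold for that difference in any class tested. In blood endothelial cells 39 guidance genes were tested, and 0 were higher and 0 lower, as were 0% and 0% of all 7741 genes tested with edgeR. At an unadjusted p under 0.05 there were 2 guidance genes and 303 genes in all, and DESeq2 called 0 guidance genes. These 2 were robo2 of gene ID ENSDARG00000014891, with 2.896 and 4.438 CPM in WT and 13.21 and 10.67 CPM in flt1-/- (1.60 ± 0.63, adjusted p = 1), and nrp2a, with 21.72 and 28.4 CPM in WT and 12.48 and 14.49 CPM in flt1-/- (−0.95 ± 0.39, adjusted p = 1). The next smallest p-values belonged to sema7a (0.53), sema3ab (−0.52), nrp1a (−0.38) and efnb2b (−0.60), all with an adjusted p of 1. Among the vascular genes, efnb2a was at −0.02 ± 0.28, ephb4a at 0.07 ± 0.29, nrp2b at −0.16 ± 0.30, robo4 at −0.21 ± 0.30 and plxnd1 at 0.42 ± 0.48. These standard errors are wide enough that a moderate change could not have been detected. The make-up of the pooled blood endothelial cells also differed by library. In WT 1, WT 2, flt1-/- 1 and flt1-/- 2 they held 20, 27, 77 and 34 venous-like cells. Capillary-like cells numbered 23, 51, 28 and 64, and unnamed cells 3, 9, 5 and 36. The part of this mix in the genotype values was not tested. sema3fa, at 0 and 1.775 CPM in WT and 26.43 and 4.575 CPM in flt1-/-, was too uneven to be tested with the filter on low counts. It was called with no filter (3.76, adjusted p = 0.0022) and without flt1-/- replicate 2 (4.52, adjusted p = 0.00093), and 36 of its 44 UMIs came from flt1-/- replicate 1.

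Across the 8 other classes with enough cells in all 4 libraries edgeR again called 0 guidance genes, where 0.0654% of 48944 tests over all genes were called in either direction. The smallest p-value was that of ntn1a in epithelial-like cells, with 421.5 and 349.2 CPM in WT and 163.6 and 167.5 CPM in flt1-/- (−1.24 ± 0.23, adjusted p = 0.14). DESeq2 called this gene (adjusted p = 0.0076), the only guidance gene it called in these classes, and the number of all genes it called is not given. The difference was −1.06 (adjusted p = 0.012) with no filter on low counts and −0.98 to −1.40 (adjusted p = 0.088 to 0.27) when single libraries were left out. Other small p-values belonged to sema6d in macrophage-like cells (12.32 and 17.24 CPM in WT, 4.943 and 7.689 CPM in flt1-/-, adjusted p = 0.36), nrp2a in epithelial-like cells (adjusted p = 0.31), efnb2a in blood progenitor-like cells (adjusted p = 0.75) and plxnb3 in lymphoid-like cells (adjusted p = 0.54). The epithelial-like class joins 2 clusters whose mix differed between the genotypes. In WT 1, WT 2, flt1-/- 1 and flt1-/- 2 the larger gave 31, 35, 212 and 85 cells and the smaller 7, 4, 128 and 54. The part of this mix in the ntn1a and nrp2a differences was not tested. The contrasts between classes were also tested for a difference between genotypes. In the 5 contrasts with all 4 libraries (endothelial against blood, venous-like, endocardial-like, lymphatic-like and the slope) no guidance gene passed the threshold with edgeR, at an adjusted p of 0.95 or more, and 3, 2, 3, 0 and 1 genes had an unadjusted p under 0.05. Of all 12695, 5581, 7755, 6660 and 4135 genes tested there, edgeR called 0, 0, 0, 7 and 0. How many of all these genes had an unadjusted p under 0.05 is not given. For neuron-like cells only 1 WT library was left, so no statement on genotype is made there. No other tool was run on that interaction.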

How the data were processed

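GFP-positive cells of 2 WT and 2 flt1-/- pools were profiled with a 10x Genomics 3′ assay, of which the labels and the paper name different versions. Per the submitters' processing notes the authors used Cell Ranger 6.1.1 and GRCz 11, and the deposited values are raw UMI counts per gene in called cells, whole and not normalized, 16828951 to 33837917 per library. Counting with molecular identifiers limits duplication, and intervals cover counting error only.

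The study's limits on cells were applied (over 200 genes, below 4500 genes, mitochondrial share below 5%). Scrublet in scanpy 1.11.5 marked 25 of 5191 cells, too few to be credible, so doublets were not removed and the 5% highest scores were left out only as an alternative. Cells were clustered in Seurat 5.3.0 (R 4.3.3; 2000 variable genes less the guidance genes, 20 principal components, resolution 0.5, endothelial clusters again at 1). Classes were rebuilt from marker lists, may differ from the study's own, and the thresholds for naming them were set after the clusters had been seen. The guidance genes and all lists were chosen with earlier results of these data known.

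UMIs were summed per library and class (at least 10 cells), TMM-normalized, filtered with filterByExpr and tested two-sided with edgeR 4.0.16 (quasi-likelihood), with Benjamini-Hochberg adjustment over all genes tested and a threshold of 0.05. Library was a block between classes, and genotype alone was the term between genotypes. DESeq2 1.42.0, no filter, left-out libraries, other clusterings and the block were alternatives. The test was also run on simulated counts, and the outcome of that run is not given here. Standard errors are the log2 fold change over the square root of F. The counting interval of a ratio is the exact 95% interval for 2 summed counts, and these ratios are not TMM-scaled. Genes named in the text were, per contrast, up to 10 per direction with the largest change in the same direction in every library, the 6 smallest p-values for genotype, the 3 highest of each family and a fixed list of vascular genes, and others were named after their values were seen. plxnb2a and robo2 each have 2 gene IDs in the files, plxnb2a without further mark is ENSDARG00000003811, and reads of such paralogues may be split. No sequences or coordinates are given, since no genome was used here.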

Additional observations from a re-analysis of the deposited data

How the results depend on the processing

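The number of called guidance genes stayed within 1.5 times its reported value under most settings. In the venous-like and arterial-like comparison it was 13, and 8 with DESeq2, 8 with no replicate block, 5 with no upper limit on genes per cell and 7 to 12 with single libraries left out. For neuron-like against endothelial cells it was 28, and 18 to 28 with single libraries left out, the lowest without flt1-/- replicate 2. For the slope it was 12, and 23 with no filter on low counts. For genotype in blood endothelial cells it was 0, and 1 with no filter and 0 to 1 with single libraries left out, and for the other classes 0, and 1 with DESeq2, 1 with no filter and 3 with the replicate block. Leaving out single libraries gave 56 to 62 for endothelial against blood cells, 22 to 28 for endocardial-like cells, 9 to 15 for lymphatic-like cells and 9 to 11 for the slope. The number of all genes called under each of these settings is not given, and leaving out a library also changes the power of the test. These counts therefore do not show whether guidance genes shifted more than other genes. The causes of these shifts were not tested. WT and flt1-/- libraries share replicate numbers only: same-numbered libraries deviated together (r = 0.47 across 7741 genes, over 2 pairs), and no pairing is given by the labels. The replicate block called epha2b in lymphoid-like cells (−2.46, adjusted p = 0.045), sema6d in macrophage-like cells (−1.29, adjusted p = 0.047) and ntn1a in epithelial-like cells (−1.23, adjusted p = 0.0068) by edgeR's test, and no guidance gene in blood endothelial cells. The number of all genes called with the block is not given.

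Of 1532 values of single genes under alternatives, 1389 kept direction and call, 73 lost the call, 28 gained it and 42 changed sign. Among those that changed sign only nrp1a in the venous-like and arterial-like comparison had been called, and it was 0.07 without subcluster 8. The others were uncalled values, most of them near 0. With no upper limit on genes per cell, nrp2a (−0.38) and slit3 (−1.14) in neuron-like cells, ephb4a (−0.35) and robo4 (0.15) in venous-like cells, and robo4 (0.0024) and epha2a (0.09) in lymphatic-like cells did so. With the highest scrublet scores left out, slit2 in neuron-like cells (0.01), efna1a in venous-like cells (0.11), epha2a in lymphatic-like cells (0.05) and ephb4a between genotypes (−0.0076) did so. efna1a in venous-like cells was 0.01 with DESeq2, 0.13 with no replicate block and 0.13 without subcluster 6. Sub-clustering at resolution 1.5 gave 0.02 for epha2a in lymphatic-like cells, and no filter gave 0.01 for efnb2a between genotypes. With single libraries left out the ranges that crossed 0 were −1.33 to 0.3 for slit2 and −0.24 to 1.68 for slit3 in neuron-like cells, −0.15 to 0.14 for efna1a in venous-like cells, −0.41 to 0.2 for nrp1a in endocardial-like cells, and −0.00097 to 0.31 for nrp2b, −1 to 0.05 for slit3 and −0.18 to 0.0089 for epha2a in lymphatic-like cells. Between genotypes in blood endothelial cells they were −0.26 to 0.22 for efnb2a, −0.09 to 0.27 for ephb4a, −0.42 to 0.08 for nrp1b, −0.45 to 0.2 for nrp2b, −0.48 to 0.07 for robo4, −0.73 to 0.41 for slit2, −0.65 to 0.09 for slit3, −0.33 to 1 for efna1a and −0.48 to 0.66 for epha2a. The settings that leave out subclusters were chosen after seeing the data, and the one without subcluster 6 also lacked WT replicate 1.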

Other observations

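Guidance genes were also expressed in the epithelial-like and mesenchymal-like cells of the sort, where 39 and 49 of the 105 genes had 10 CPM or more, and 8 and 11 had 50 CPM or more. In epithelial-like cells the ephrin-A ligand efna1b stood at 336 ± 51.6 CPM (SD, n = 4), the netrin gene ntn1a at 275 ± 130 CPM and the Eph receptor gene epha2a at 251 ± 32.8 CPM. For ntn1a and epha2a this was the highest mean of any named class. slit2, which was also high in venous-like and endocardial-like cells, stood at 101.9 to 134.8 CPM in the 4 epithelial-like libraries. In mesenchymal-like cells efna1b stood at 285 ± 64.6 CPM, efnb2a at 256 ± 34.8 CPM, slit3 at 97.8 ± 21.6 CPM and nrp1a at 66.9 ± 22.1 CPM. These levels were not tested against other classes, and the share of all genes at 10 or 50 CPM is not given.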
